A study of Mus musculus with 2 samples.

Results

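The genes described here are 40 protein-coding genes that mark the endothelial cells lining blood and lymphatic vessels, or that supply the signals those cells answer. They were taken by their GENCODE M21 symbol from a fixed list, and all 40 were found among 55536 gene entries. The tissue was whole embryonic limb of B6NCrl mice, aged 12.5 days, of pooled sexes and labelled healthy, with no treatment or mutation named. It formed 1 group of 2 biological replicates: replicate 1 pooled 88 embryos and replicate 2 pooled 68 embryos, so each value is a mean over many embryos. PolyA RNA-seq libraries were made from 10 ng of RNA each, by oligo-dT priming and tagmentation, with spike-in RNA added. Levels are TPM, the abundance of a gene's transcripts normalised for length and depth, given per library or as mean ± SD (n = 2).

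Endothelial cells answer VEGF ligands through the receptor kinases Kdr, Flt1 and Flt4, and angiopoietins through Tek, with Tie1 as its partner. VEGF signalling drives the growth and branching of vessels, and the angiopoietin and Tie system governs how they settle and remodel. Blood endothelium shares transcription factors of the ETS, SoxF, GATA and bHLH families with early blood cells. Lymphatic endothelium arises largely from veins under the control of Prox1 and is guided by Vegfc acting on Flt4. In the limb bud a vascular network is in place before cartilage forms and is remodelled around it.

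Depth was close in both libraries, with 29633457 and 30118921 expected counts over genes. The endothelial genes held 0.0942% of them in replicate 1 and 0.0922% in replicate 2. Their TPM summed to 648 in replicate 1 and 650.1 in replicate 2. Spike-ins held 7.34% of all TPM in replicate 1 and 5.13% in replicate 2. The TPM used here was not rescaled for this, so gene TPM is slightly raised in replicate 2 against replicate 1. In bulk tissue a small number of cells of a type and little RNA per cell cannot be told apart, so no level below is a number of cells. Because the series has 1 group, all p-values below compare these 2 libraries and not conditions.

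Nearly all of the listed vascular genes were detected in the limb. Of the 40 genes 39 reached 1 TPM in both libraries, against 58.1% of all 22028 protein-coding genes, and 19 reached 10 TPM in both. The exception was Lyve1, a hyaluronan receptor of lymphatic vessels. Because the list was chosen with earlier results of these data known, the 2 shares describe levels and test no excess. The levels ran from 62.9 ± 1.71 TPM for Egfl7 to 0.495 ± 0.544 TPM for Lyve1. Their median was 9.41 TPM in replicate 1 and 10.0 TPM in replicate 2, below the medians of 22.3 and 22.4 TPM over the protein-coding genes that reached 1 TPM in both libraries. When the genes were ordered by mean level, only 10 of the 39 steps between neighbours had ranges that did not overlap over the 2 libraries, so most neighbours in the order could not be separated.

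**Figure D1:**
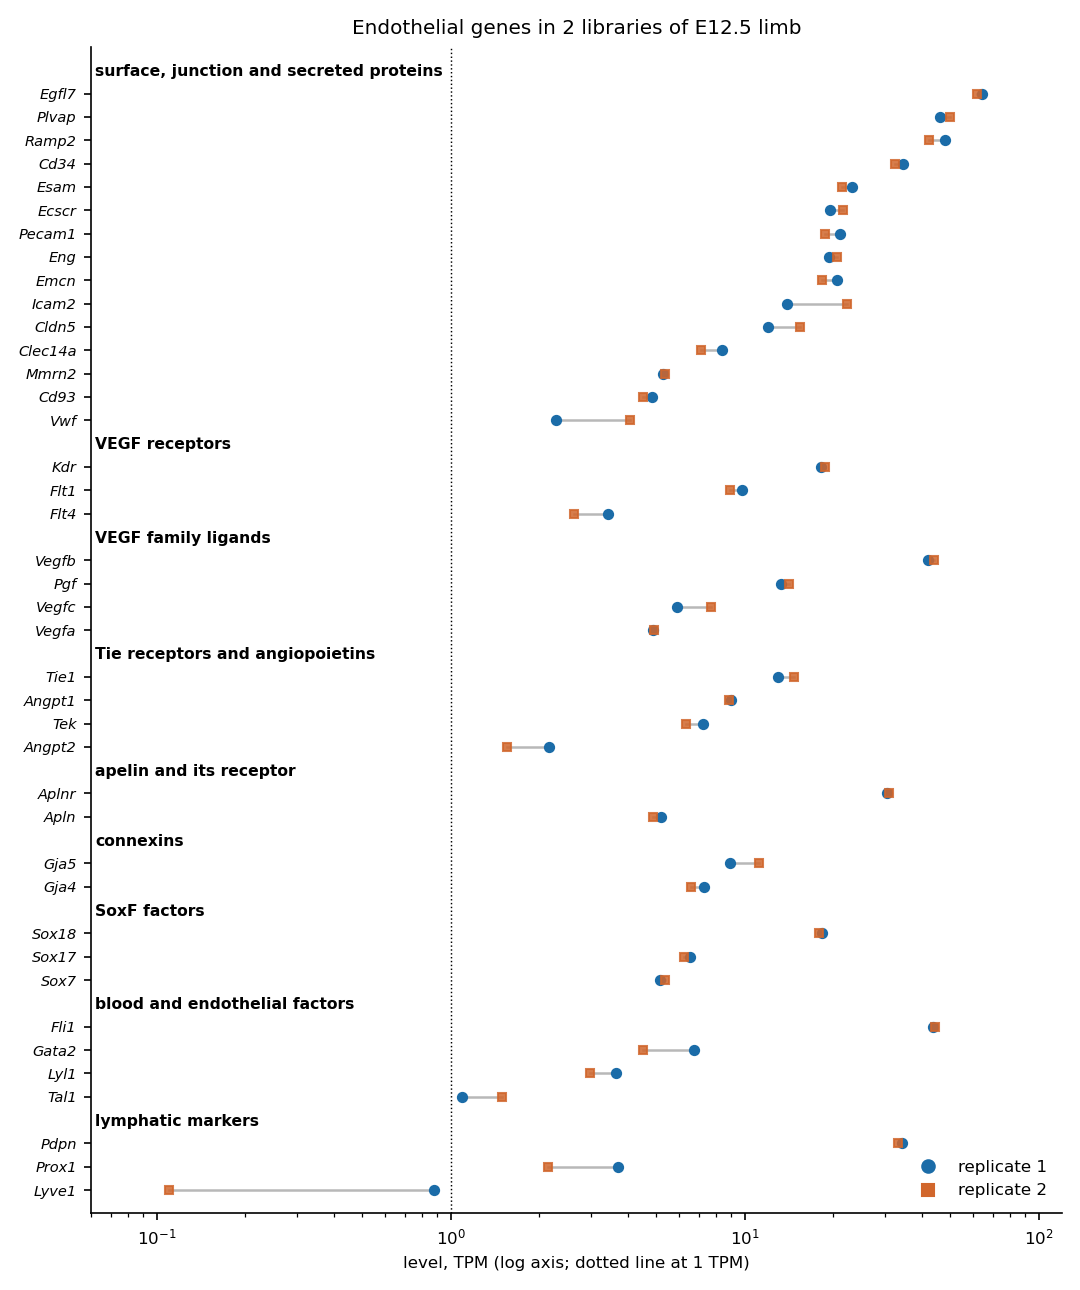
Level of each of the 40 endothelial genes in TPM on a log axis, grouped by role, with a blue circle for replicate 1, an orange square for replicate 2 and a grey line joining them; the dotted line marks 1 TPM. Egfl7 lies farthest right at 64.1 and 61.7 TPM, and Lyve1 is the only gene left of the dotted line in both libraries.

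The highest levels belonged to surface, junction and secreted proteins of blood vessels, all 15 of which were at or above 1 TPM in each library (median 19.9 TPM). Egfl7 (ENSMUSG00000026921.18, chromosome 2, 26580014 to 26593120, mm10), which encodes a matrix protein secreted by endothelial cells, stood at 64.1 TPM in replicate 1 and 61.7 TPM in replicate 2. Its lowest value was above the highest of every other member. Plvap, the diaphragm protein of fenestrated endothelium, stood at 46.2 and 49.9 TPM, and Ramp2, a partner of the adrenomedullin receptor, at 48.1 and 42.3 TPM. The ranges of Plvap and Ramp2 overlapped. Cd34, a sialomucin of endothelium and blood progenitors, was found at 34.5 and 32.5 TPM.

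Junction and adhesion genes formed a band at about 20 TPM. Pecam1 (chromosome 11, 106654217 to 106750628), the CD31 adhesion molecule, had 21.1 and 18.8 TPM. This adhesion molecule is made by nearly all endothelium and, more weakly, by platelets and leukocytes. Esam, a junctional immunoglobulin protein, had 23.2 and 21.4 TPM. Emcn, an endothelial sialomucin of veins and capillaries, had 20.6 and 18.4 TPM. Ecscr, an endothelial surface protein, lay within this band at 19.4 and 21.5 TPM, and so did the TGF-beta co-receptor Eng at 19.3 and 20.5 TPM. Cldn5, the main claudin of endothelial tight junctions, was lower at 12.0 and 15.5 TPM, and its range did not reach that of Esam, which was 1.64-fold higher. The lectin-like receptor Clec14a stood at 8.35 and 7.11 TPM, its matrix ligand Mmrn2 at 5.29 and 5.38 TPM, and Cd93, which also binds Mmrn2, at 4.84 and 4.5 TPM.

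In TPM Icam2 and Vwf differed more between the libraries than the others of this class, and their transcripts show where. In reads scaled to library size Cldn5 was 1.29-fold apart, more than Icam2. Icam2, an endothelial adhesion molecule whose gene lies 266 kb from Pecam1 on chromosome 11, had 13.9 TPM in replicate 1 and 22.3 TPM in replicate 2, a 1.60-fold difference in TPM but 1.25-fold in reads scaled to library size. Its full-length transcript Icam2-201 stood at 12.3 TPM in both libraries. Transcripts under 1000 nt held 1.64 TPM on 13.8 reads in replicate 1 and 9.92 TPM on 90.8 reads in replicate 2.

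Vwf, the clotting factor stored by endothelium and platelets, had 2.29 TPM in replicate 1 and 4.09 TPM in replicate 2. It was 1.79-fold apart in TPM and 1.30-fold in reads. A noncoding transcript of 456 nt, Vwf-209, held 56.1% of the gene's TPM in replicate 2 on 16.3 reads, and 8.30% in replicate 1 on 1.32 reads. The coding transcript Vwf-203 had 1.13 and 1.66 TPM. Beside it, 6 of 9 megakaryocyte and platelet markers reached 1 TPM in both libraries, none was at 0, and they summed to 68.8 TPM in replicate 1 and 68.5 TPM in replicate 2.

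Egfl7 also hosts the endothelial microRNA gene Mir126a, and its mature product is printed because the precursor shares exons with the most abundant gene of the list. The seed, bases 2 to 8, is in capitals, the sequence is RefSeq's (GRCm38.p6), and it lies on the plus strand at chr2:26591402-26591423. The second sequence is that of Mir126b, annotated on the opposite strand of the same locus, and its seed differs.
mmu-miR-126a-3p: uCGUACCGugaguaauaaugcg
mmu-miR-126b-3p: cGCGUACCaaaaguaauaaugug
Mir126a and Mir126b were each listed at 0 reads in each library, a count that allows up to 3 reads. The size range the labels give for these libraries leaves out RNAs as short as a mature microRNA. The 19 annotated Egfl7 transcripts shared the signal widely. The leading one, Egfl7-202, held 24.2 ± 3.30% of the TPM, and noncoding transcripts together held 35.1 ± 0.331%.

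Among the VEGF receptors Kdr, the main signalling receptor for Vegfa, was highest. Kdr (ENSMUSG00000062960.10, chromosome 5, 75932827 to 75978458) stood at 18.2 TPM in replicate 1 and 18.8 TPM in replicate 2. Flt1, which binds Vegfa, Vegfb and Pgf and acts largely as a decoy, had 9.82 and 8.90 TPM. Flt4, the receptor of Vegfc and Vegfd, had 3.43 and 2.63 TPM. The order Kdr, Flt1, Flt4 was the same in both libraries with no overlap of ranges. Kdr exceeded Flt1 1.98-fold and Flt4 6.16-fold, and Flt1 exceeded Flt4 3.11-fold.

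The ligands did not follow the order of their receptors. Vegfb (ENSMUSG00000024962.13, chromosome 19, 6982473 to 6987651), a ligand of Flt1 made by many tissues, was highest at 42.1 and 44.0 TPM. Pgf, the placental growth factor that also binds Flt1, had 13.3 and 14.2 TPM, and Vegfc, the lymphatic ligand, had 5.89 and 7.67 TPM. Vegfa (ENSMUSG00000023951.17, chromosome 17, 46016993 to 46032369), the ligand required for the first vessels, was lowest at 4.88 and 4.92 TPM.

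In the 4 pairs of ligands compared the ranges over the 2 libraries did not overlap. Vegfb exceeded Vegfa 8.78-fold and Vegfc 6.40-fold, Pgf exceeded Vegfa 2.80-fold, and Vegfc exceeded Vegfa 1.37-fold. In reads not divided by length these ratios were 4.44, 3.62, 1.71 and 1.23, and the ranges of Vegfa and Vegfc then overlapped, so their order was lost. With GENCODE M4 Vegfc exceeded Vegfa 1.76-fold. All 4 ligands had the higher value in replicate 2, in TPM and in reads, but mostly by little. In TPM the difference was 1.01-fold for Vegfa, 1.05-fold for Vegfb, 1.07-fold for Pgf and 1.30-fold for Vegfc. Only Vegfc had an adjusted p under 0.05 by the exact binomial test described below. By the edgeR exact test its adjusted p was 0.423. Vegfd, the second ligand of Flt4 and not one of the 40 genes, stood at 3.15 and 3.55 TPM.

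Vegfa is spliced into forms that differ in how tightly they are held by heparan sulphate, and the stretches that make the difference are printed here from the M21 transcripts on the minus strand of mm10. The exon is in capitals and 15 bases of the neighbouring exons are in lower case.
Vegfa exon of 72 nt, chr17:46022277-46022348: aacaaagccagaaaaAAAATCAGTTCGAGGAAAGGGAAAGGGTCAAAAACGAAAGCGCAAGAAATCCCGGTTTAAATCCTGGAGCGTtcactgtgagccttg
Vegfa exon of 132 nt, chr17:46020991-46021122: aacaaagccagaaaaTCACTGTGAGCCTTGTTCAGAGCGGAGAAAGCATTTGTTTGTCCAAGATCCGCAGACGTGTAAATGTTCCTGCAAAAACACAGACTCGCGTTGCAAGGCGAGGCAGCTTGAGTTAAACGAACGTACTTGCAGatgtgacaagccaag
Both exons are whole numbers of codons, 24 and 44. Coding transcripts with neither exon, the freely diffusing type (Vegfa-201 and Vegfa-211), held 57.0% of the TPM of coding Vegfa transcripts in replicate 1 and 60.8% in replicate 2. Those with the 132-nt exon alone, led by Vegfa-202, held 31.2% and 39.2%. Those with both exons, the tightly bound type, held 11.8% in replicate 1 on 17.3 reads and 0% in replicate 2.

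The order of these 3 Vegfa types was the same in both libraries, but it rests on 189 and 208 reads and on transcript ends that the model must apportion. By reads instead of TPM, the forms with neither exon held 46.9% and 48.9% of the coding reads, and those with the 132-nt exon alone held 44.0% and 51.1%. The first 2 types therefore could not be ordered by reads. In the plot of transcript shares the retained-intron transcript Vegfa-210 took 15.4% and 13.2% of the gene's TPM.

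Vegfb has a heparin-binding and a freely secreted form, set by a 101-nt stretch that shifts the reading frame. The stretch is printed because the 2 forms were the main transcripts of the most abundant ligand; capitals mark the bases of Vegfb-201 that Vegfb-202 lacks, on the minus strand of mm10.
Vegfb stretch of 101 nt, chr19:6985496-6985596: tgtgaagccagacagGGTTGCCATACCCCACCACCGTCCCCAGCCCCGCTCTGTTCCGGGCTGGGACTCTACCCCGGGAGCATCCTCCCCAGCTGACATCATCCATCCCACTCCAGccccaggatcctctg
Vegfb-201, with the stretch and 207 codons, held 47.0% of the gene's TPM in replicate 1 and 56.0% in replicate 2. Vegfb-202, without it and with 188 codons, held 48.0% and 40.1%. Their TPM ranges overlapped, so neither form was measurably ahead of the other.

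Flt1 produces the full receptor and a soluble form that ends early and traps ligand outside the cell. The end that is particular to the soluble transcript Flt1-203 is printed in capitals, after 15 bases shared with the receptor transcript, on the minus strand of mm10. It holds 95 nt and closes with the stop codon.
Flt1 soluble end, chr5:147639130-147639224: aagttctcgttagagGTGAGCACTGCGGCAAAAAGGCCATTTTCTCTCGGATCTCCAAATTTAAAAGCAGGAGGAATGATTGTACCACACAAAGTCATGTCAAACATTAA
The receptor transcript Flt1-202, with 1333 codons, stood at 2.90 TPM in replicate 1 and 2.91 TPM in replicate 2. The soluble transcript, with 688 codons, stood at 2.48 and 1.89 TPM, which was 0.855 and 0.649 times the receptor transcript. The ranges of the 2 forms over the libraries did not overlap. Their deposited TPM bounds did overlap in replicate 1, at 2.46 to 3.15 for the receptor and 2.04 to 2.73 for the soluble transcript. In replicate 2 the bounds were apart, at 2.49 to 3.18 and 1.54 to 2.14. A noncoding transcript, Flt1-201, held 43.0 ± 2.42% of the gene's TPM, 1.38-fold more than the receptor transcript. By reads the order turned: Flt1-201 held 18.3% and 19.6% of the gene's reads, and Flt1-202 held 45.7% and 50.05%.

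**Figure D2:**
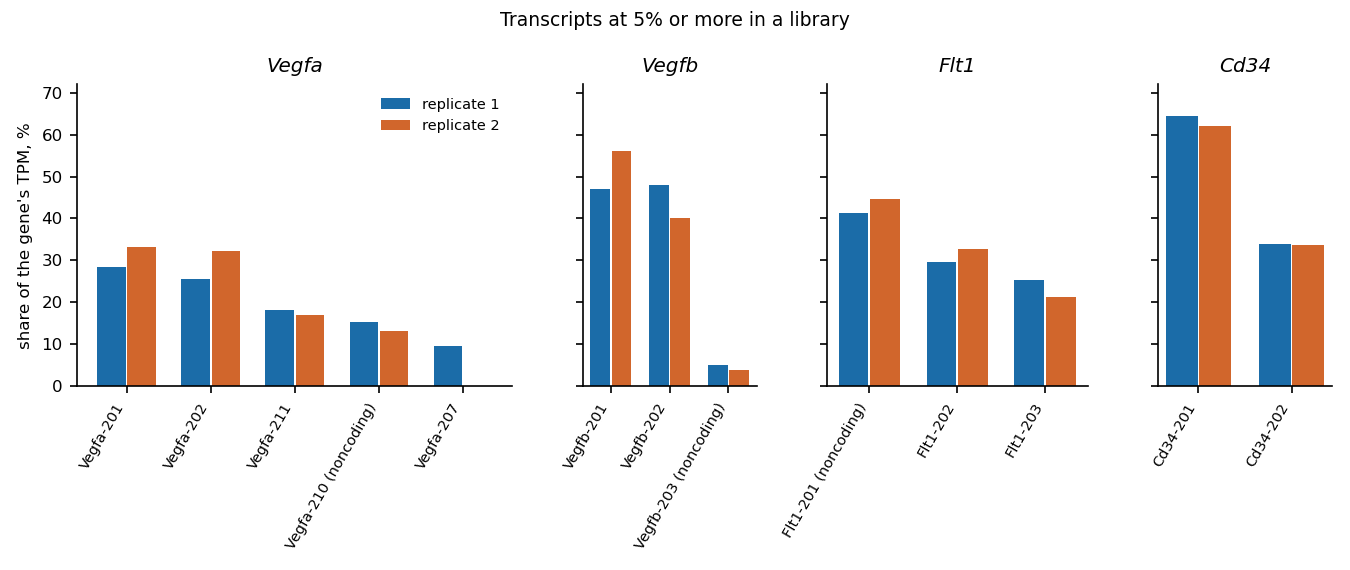
Share of the gene's TPM in percent held by each transcript of Vegfa, Vegfb, Flt1 and Cd34 that reached 5% in a library, with blue bars for replicate 1 and orange bars for replicate 2. Cd34-201 leads at 64.4% and 62.1%, the 2 coding Vegfb transcripts swap order between libraries, and Vegfa-207 has a bar in replicate 1 only.

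Cd34 gave the steadiest pair of forms among these 4 genes. Cd34-201, with 382 codons and the full cytoplasmic tail, held 64.4% and 62.1% of the TPM. Cd34-202, with 325 codons, held 33.9% and 33.6%. Its reading frame ends after 5 more codons, the stop included, on the plus strand at chr1:194959780-194959794; capitals mark this end, which the longer protein's transcript lacks.
Cd34 short end: acaggagaaaggctgGAGCTGGAACCTTGA
The short form stood at 0.526 and 0.541 times the long form, and the ranges did not overlap.

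Over the 40 genes, 10 had a second transcript at 25% or more of the TPM, and in 16 a single transcript held 90% or more. In 9 of these 16 the annotation has only 1 transcript, which fixes the share, and 7 had others to share with. Kdr-201 held 98.5 ± 0.334% of Kdr. Some splits were not stable: Eng-202 was listed at 0 TPM in replicate 1 and held 29.5% of Eng in replicate 2, and Prox1-203 was listed at 0 in replicate 1 and held 32.1% of Prox1 in replicate 2. When shares were taken from reads instead of TPM, 6 genes had such a second transcript.

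The Tie receptors and angiopoietins were low to moderate, with all 4 above 1 TPM in both libraries. Tie1 had 12.9 and 14.7 TPM and Tek, the angiopoietin receptor, 7.21 and 6.31 TPM. Tie1 exceeded Tek 2.04-fold. Angpt1, the activating ligand made by perivascular and mesenchymal cells, had 9.00 and 8.88 TPM, the second-smallest SD relative to its mean among the 40 genes after Vegfa. Angpt2, which endothelium makes during remodelling, had 2.16 and 1.56 TPM. Angpt1 exceeded Angpt2 4.87-fold, or 9.93-fold in reads not divided by length, and in Angpt2 the noncoding transcript Angpt2-202 held 59.3% and 40.4% of the TPM on 13.9 and 6.98 reads.

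Among the apelin pair, the receptor outran its ligand. Aplnr, a G-protein-coupled receptor of veins and angioblasts, had 30.5 and 31.1 TPM. Apln, the peptide made by tip cells and the only gene of the list on the X chromosome, had 5.20 and 4.87 TPM. Aplnr exceeded Apln 6.12-fold with no overlap. The arterial connexins were closer: Gja5 had 8.92 and 11.2 TPM and Gja4 had 7.28 and 6.58 TPM, so Gja5 exceeded Gja4 1.44-fold, or 2.57-fold in reads not divided by length.

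SoxF factors, which direct arterial and lymphatic fate, were led by Sox18 at 18.3 and 17.9 TPM. Sox17 had 6.53 and 6.20 TPM and Sox7 had 5.16 and 5.36 TPM. Sox18 exceeded Sox17 2.84-fold and Sox7 3.44-fold, the latter 1.64-fold in reads not divided by length. Sox17 exceeded Sox7 1.21-fold in TPM, but on the read scale it was lower, with a log2 ratio of -0.69.

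The factors shared with blood were headed by the ETS gene Fli1 (ENSMUSG00000016087.13), at 43.7 TPM in replicate 1 and 44.4 TPM in replicate 2. Gata2, a GATA factor of blood stem cells and endothelium, had 6.73 and 4.52 TPM, and the bHLH genes Lyl1 and Tal1 had 3.66 and 2.98 TPM and 1.09 and 1.49 TPM. Fli1 exceeded Gata2 7.98-fold and Lyl1 exceeded Tal1 2.59-fold, against 13.3-fold and 1.27-fold in reads not divided by length. The Gata2 level depends on the annotation: a 423-nt transcript, Gata2-203, held 56.2% and 47.5% of it on 24.2 and 13.8 reads, and with GENCODE M4 the gene stood at 3.36 and 2.72 TPM, 15.3-fold below Fli1.

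Blood cells were in the tissue beside these genes. All 8 red blood cell markers reached 1 TPM in both libraries and summed to 8918 and 8884 TPM, led by the embryonic globin Hbb-y at 7124 ± 2.38 TPM. Of the 7 blood progenitor markers 4 did, summing to 27.0 and 24.9 TPM, with Kit highest and Gfi1 lowest at 0 and 1 read. Their part in the levels of Tal1, Lyl1, Gata2, Fli1 and Cd34 was not tested.

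The lymphatic markers ranged widely in level, and 1 of the 3, Lyve1, rests on few reads. Pdpn, the podoplanin gene, was high at 34.1 and 33.1 TPM, but it is also made by epithelia and mesenchyme. Prox1 (ENSMUSG00000010175.13, chromosome 1, 190118035 to 190170714), the lymphatic fate factor that is also used in muscle and nervous tissue, had 3.70 TPM in replicate 1 and 2.15 TPM in replicate 2. Lyve1 (ENSMUSG00000030787.4, chromosome 7, 110850607 to 110863239) had 0.88 TPM on 27 reads and 0.11 TPM on 6 reads. Its retained-intron transcript Lyve1-202 held 59.6% of the TPM in replicate 1 on 7.33 reads, and 0% in replicate 2. The coding transcript Lyve1-201 had 0.36 TPM on 19.7 reads and 0.11 TPM on 6 reads. All 3 lymphatic markers had the lower value in replicate 2, Pdpn by only 1.03-fold with an adjusted p of 0.473 by the exact binomial test. Of the lymphatic receptor and its ligand, Flt4 was lower in replicate 2 and Vegfc was higher there, by 1.30-fold in TPM and 1.42-fold in reads.

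Prox1 exceeded Lyve1 4.20-fold in replicate 1 and 19.5-fold in replicate 2, and Pdpn exceeded Lyve1 38.8-fold and 301.1-fold. Both pairs had separate ranges, and the sizes rest on the few Lyve1 reads. In reads not divided by length Prox1 exceeded Lyve1 18.8-fold and 42.5-fold. Lyve1 is also a gene of tissue macrophages. Beside it, 10 of 11 macrophage markers reached 1 TPM in both libraries and none was at 0. They summed to 75.7 TPM in replicate 1 and 66.0 TPM in replicate 2. Mrc1, often made with Lyve1, had 2.64 and 1.96 TPM. Not all markers of the list moved this way: Cx3cr1 had 3.99 TPM on 261 reads and 4.72 TPM on 297 reads. Adgre1 was higher in replicate 2 in TPM only, with 2.65 and 3.23 TPM on 164 and 151 reads. The part of macrophages in the Lyve1 level was not tested.

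The 2 libraries were then compared gene by gene. Rounded expected counts, with TMM library sizes, were put to a two-sided exact binomial test. By this test 0 of the 39 endothelial genes tested passed an adjusted p of 0.05 and a 2-fold TPM ratio, where 1.07% of the 15926 tested genes did. At an unadjusted p under 0.05 by the same test there were 16 of the 39 genes, against 29.9% of all tested genes, and the edgeR exact test with a common dispersion called 0 of the 39, against 0.603% of all tested genes. The median log2 ratio of replicate 2 over replicate 1 (TPM + 1) was -0.04 for the 40 genes and 0.01 for all tested genes. Of the 40 genes 18 were nominally higher in replicate 2 and 22 in replicate 1, and 28 lay within 1.2-fold in TPM. These counts take TPM with its unequal spike-in shares, so genes with a ratio close to 1 can change side when TPM is rescaled over genes.

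With a 1.5-fold minimum 3 of the 39 genes passed, Prox1, Icam2 and Vwf, against 2.71% of all tested genes. With no fold minimum 11 of the 39 genes had an adjusted binomial p under 0.05, against 19.2% of all tested genes. Prox1, Flt4, Tek, Clec14a and Pecam1 were lower in replicate 2, and Vegfc, Cldn5, Vwf, Tie1, Icam2 and Gja5 were higher. The binomial test counts only sampling error and no spread between pools. When a common spread was allowed, by the edgeR exact test with Benjamini-Hochberg adjustment, Prox1 alone among the 39 stayed under 0.05 with no fold minimum. Its adjusted p by that test was 2.51e-05, against 1.04% of all tested genes under 0.05, and Vegfc came next at 0.423. The common spread was estimated over all genes from these same 2 libraries, so it is no independent measure of the spread between pools.

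Prox1 was the clearest difference. It had 507 reads in replicate 1 and 255 reads in replicate 2, a 2.02-fold ratio after scaling to library size, and 1.72 in TPM, which is why the 2-fold TPM rule left it out (adjusted p = 5.92e-19 by the exact binomial test). The deposited bounds of its TPM did not overlap, 3.28 to 4.12 in replicate 1 and 1.81 to 2.50 in replicate 2. A 2-fold minimum on reads, chosen after the values were seen, called Prox1 alone among the 39, against 1.07% of all tested genes.

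Lyve1 lay below the mean of 1 TPM needed for the test. With no such filter it was called, 8-fold lower in TPM and 4.57-fold lower in reads in replicate 2, with an adjusted p of 0.00359 by the exact binomial test. That call, made over 29220 genes, rests on 27 and 6 reads, and the TPM fold includes the retained-intron transcript listed in replicate 1 only. The share of all genes called without the filter is not given here, so the call has no background beside it. Beside these genes, the cartilage markers also differed: 2 of 5, Matn1 at 24.0 and 9.65 TPM and Acan at 8.07 and 3.90 TPM, were called lower in replicate 2. Over all tested genes 1.07% were called in either direction by the exact binomial test. The cartilage list summed to 820 and 706 TPM with none at 0. The 5 muscle markers summed to 750 and 730 TPM, with 0 called by either exact test. Of them 3 had an unadjusted binomial p under 0.05, against 29.9% of all tested genes. The part of these tissues in the Prox1 difference was not tested.

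**Figure D3:**
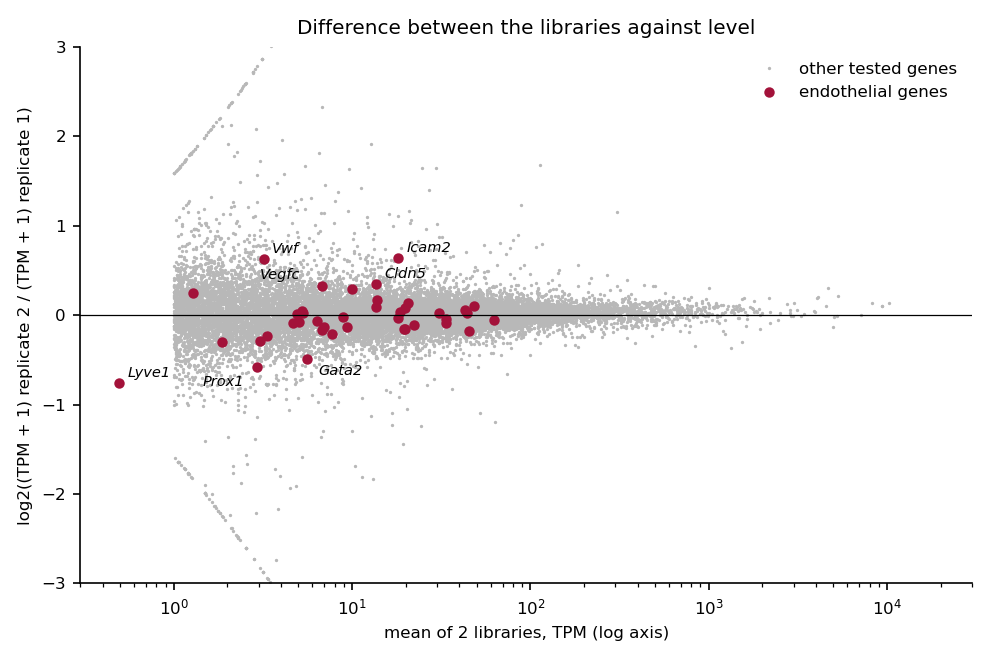
Log2 ratio of replicate 2 over replicate 1 on TPM + 1 against the mean level in TPM on a log axis, with the 15926 tested genes in grey and the 40 endothelial genes in red; 30 tested genes lie outside the vertical axis. Most red points sit close to the zero line, and Lyve1, Prox1 and Gata2 lie lowest while Icam2 and Vwf lie highest.

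The spread between libraries narrowed with level, in the endothelial genes as in all genes. The ratios of the tested genes here had 0.1 TPM added to each value and those of the endothelial genes had none, which lowers the former most at low levels. Between 1 and 5 TPM the median ratio of higher to lower library was 1.34 for 8 endothelial genes and 1.21 for 4588 tested genes. Between 5 and 20 TPM it was 1.11 for 21 genes and 1.09 for 4270, and between 20 and 100 TPM it was 1.05 for 10 genes and 1.06 for 5320. The largest endothelial ratio at 20 to 100 TPM was 1.14. Of these 3 bands the highest had the smallest spread.

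In reads 29 of the 40 genes lay within 1.2-fold, compared with 28 in TPM. For 3 genes the TPM ratio and the read ratio lay on opposite sides of 1. The genes farthest apart on the 2 scales were Lyve1, Vwf, Angpt2 and Icam2. In each of them the share of TPM in transcripts under 1000 nt differed between the libraries, from 59.6% and 0% in Lyve1 to 59.3% and 40.4% in Angpt2. In Ramp2 such transcripts held 84.6% and 77.3%, and the ratio of higher to lower library was 1.14 in TPM and 1.12 in reads. In Emcn they held 18.3% and 6.64%, with ratios of 1.12 and 1.04. Prox1, with ratios of 1.72 and 2.02, has no annotated transcript under 1000 nt. The part of short transcripts in the gaps was not tested.

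**Figure D4:**
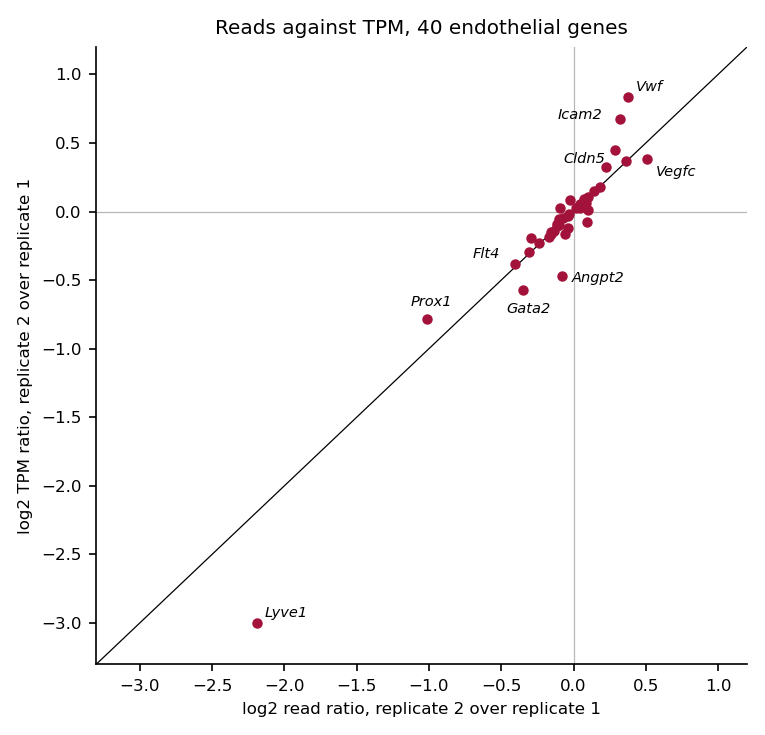
Log2 ratio of replicate 2 over replicate 1 in TPM against the same ratio in reads scaled to library size, 1 point for each of the 40 endothelial genes, with the line of equal ratios. Vwf and Icam2 lie above the line, Angpt2 and Gata2 below it, and Prox1 above it at a read ratio of 2.02-fold and a TPM ratio of 1.72-fold in favour of replicate 1.

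Of 59 other vascular genes 54 reached 1 TPM in both libraries. Their median was 7.39 TPM. Of the 56 tested 0 were called between the libraries by the exact binomial test or by the edgeR exact test, against 1.07% and 0.603% of all tested genes. At an unadjusted binomial p under 0.05 there were 21, against 29.9% of all tested genes. The highest were the transcription factor genes Mecom at 148 ± 1.85 TPM and Ets2 at 97.7 ± 2.15 TPM, and the venous receptor gene Ephb4 at 73.5 ± 6.01 TPM. All 3 are also used outside vessels. The 3 lowest were Stab2, a sinusoidal scavenger receptor, with 3 and 5 reads, Etv2, the first ETS factor of the endothelial lineage, with 0 and 1 read, and Gdf2, a ligand made mainly in liver, with 0 reads in each, a count that allows up to 3.

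**Figure D5:**
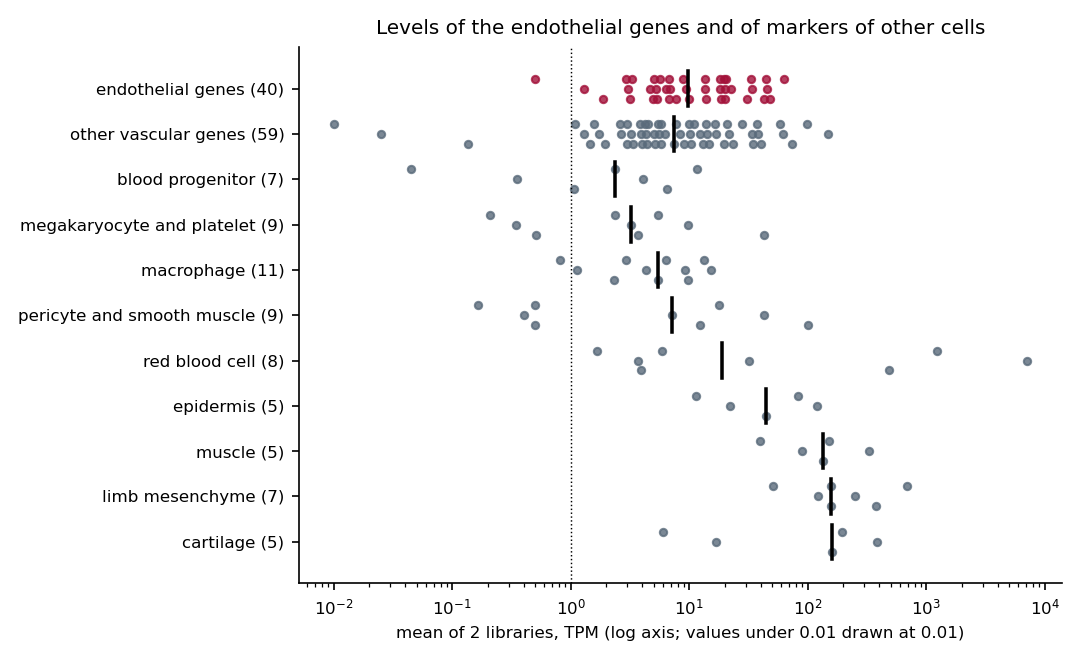
Mean level over 2 libraries in TPM on a log axis for each gene of the endothelial list (red), of the other vascular genes and of 9 lists of markers of other cells (grey), with the number of genes in parentheses and a black bar at each list's median. The endothelial median of 9.70 TPM lies above those of blood progenitors, platelets and macrophages, and below those of epidermis, muscle, mesenchyme and cartilage.

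Markers of the other tissues set the scale. The 7 limb mesenchyme markers had a median of 157 TPM, from Col3a1 at 692 ± 4.32 to Twist1 at 50.8 ± 1.15 TPM, and the 5 epidermis markers had a median of 44.0 TPM. Of the 9 pericyte and smooth muscle markers, the cells that wrap vessels, 5 reached 1 TPM in both libraries. Acta2 led at 101 ± 8.0 TPM and Pdgfrb followed at 42.4 ± 3.46 TPM, whereas Rgs5 at 0.495 ± 0.0778, Kcnj8 at 0.405 ± 0.0778 and Myh11 at 0.165 ± 0.00707 TPM were under the minimum. Over all 9 marker lists 55 of 66 genes reached 1 TPM in both libraries.

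Some endothelial genes share sequence with neighbours, which limits their counts. In 9 members exons overlap another gene on the opposite strand, a limit where strand was not used in counting. In 2 they overlap another gene on the same strand, where strand cannot separate the reads. The largest overlap on the same strand is that of Ramp2 with Vps25, 1103 nt or 33.4% of the Ramp2 exons. Vps25 stood at 81.1 and 75.0 TPM, and the retained-intron transcript Ramp2-205 held 37.1 ± 6.61% of Ramp2, so the Ramp2 level is uncertain. Smaller overlaps were those of Sox17 with Gm37587 (16.8% of its exons), Angpt1 with Gm17473 (14.2%) and Egfl7 with Agpat2 (1.79%).

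Promoter windows of 300 bases, 250 before the start and 50 after it, were found in the RefSeq table (GRCm38.p6) for 23 of the 40 genes, 30 windows in all. Those without an entry were Plvap, Ramp2, Fli1, Aplnr, Esam, Ecscr, Pecam1, Sox18, Icam2, Angpt1, Sox17, Mmrn2, Sox7, Cd93, Vwf, Angpt2 and Lyve1. The median GC content was 61.3% in these windows and 52.7% in all 32851 windows of the table. The ETS motif CAGGAAG, on either strand, was in 16.7% of the members' windows and in 13.3% of all windows. The second ETS motif CCGGAAG was in 3.33% and 8.86%, the GATA motif AGATAAG in 3.33% and 3.04%, and the SOX motif ACAATG in 0% and 12.6%. The CAGGAAG matches were in Apln, Cd34, Egfl7 and Emcn. The shares are counts of letters in 30 windows and describe no binding.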

How the data were processed

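PolyA RNA-seq of 2 libraries of mouse limb, 1 group, was used as deposited. The authors quantified each library on mm10 with GENCODE M21 and M4, per the labels and the file headers; how reads were aligned and counted, and whether by strand, is not given in the sources used here. Per the file headers, the deposited values are expected counts, TPM and FPKM per gene, and per transcript also the percent of the gene's abundance, with bounds of TPM whose level is not stated. M21 was the main annotation. Expected counts were rounded for tests. tRNA and spike-in entries stayed out of library sizes and tests.

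Genes whose mean was at least 1 TPM were compared between the libraries with an exact two-sided binomial test (scipy 1.17.1) on library sizes from edgeR 4.0.16 TMM, with Benjamini-Hochberg adjustment over 15926 genes, at an adjusted p of 0.05 and a 2-fold TPM ratio. With 1 library per pool no quasi-likelihood fit was possible. Counts were simulated for 15926 genes with 1 common spread for all genes, and the 2-fold rule was applied to reads. On these the binomial step called 96.2% of genes changed 3-fold, 95.8% of those changed 5-fold and 0.102% of unchanged genes. A spread particular to each gene and the TPM ratio were not simulated, so 0.102% is no false-call rate for these data. Between the 2 real libraries 1.07% of tested genes were called. Alternatives were the edgeR exact test, DESeq2 1.42.0 size factors, other minima, M4, FPKM, rescaled TPM, reads without length and either library alone. The common dispersion of the edgeR exact test was estimated from the same 2 libraries, taken as 1 group. Log2 ratios between the libraries used a pseudocount of 1 TPM, and the median ratios of all tested genes by level used 0.1 TPM. Pairs of genes were called separate where their ranges over the 2 libraries did not overlap.

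All 40 members are named; of the other lists, the 3 highest and 3 lowest genes, genes called between the libraries and genes that a comparison turns on were eligible. Transcripts are named from 25% of a gene's TPM, and for Vegfa, Vegfb and Flt1 from 5%. The other transcripts named, Mrc1, Cx3cr1, Adgre1, Vps25 and the other overlapping genes were chosen after their values were seen. The members and lists were chosen with earlier results of these data known. The labels call the replicates biological; they are separate pools of embryos from 1 strain. Counting bounds cover counting error only.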

Additional observations from a re-analysis of the deposited data

How the results depend on the processing

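No paired analysis was possible because the series has 1 group. With M4, FPKM, a minimum of 0.5 or 5 TPM, rescaled TPM or either library alone, 29 to 39 of the 40 endothelial genes passed, the lowest at 5 TPM. Of the 59 other vascular genes 34 passed at 5 TPM. The count of endothelial genes differing between the libraries was 0 under total counts, DESeq2 size factors, the edgeR exact test and M4. It was 3 at a 1.5-fold minimum (Prox1, Icam2 and Vwf, where 2.71% of tested genes passed) and 11 with no fold minimum (where 19.2% passed). It was 1 with no filter on low values (Lyve1). With a 2-fold minimum on reads, chosen after the values were seen, it was 1 (Prox1, where 1.07% of tested genes passed). The share of all genes called with no filter on low values is not given here. A second transcript at 25% was found in 6 genes by reads. The log2 ratio of Sox17 to Sox7 reversed to -0.69 without division by length; that pair kept separate ranges. All 22 pairs had separate ranges with M4 and FPKM, and 21 without length, where Vegfa and Vegfc overlapped. Without length 16 pair ratios moved by more than the spread between the libraries, 1 reversed and 5 did not move. M4 moved the mean of 1 gene, Gata2, by over 1.5 times. Depth limits Lyve1, Tal1 and Angpt2, the 3 genes with fewer than 100 reads in a library, and transcripts known from few reads.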
